A study of Mus musculus with 3 samples.

Results

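The Ikaros family of zinc finger transcription factors was examined at the level of genes and of single transcripts in naive CD4 T cells. The family has 5 genes, Ikzf1 (Ikaros), Ikzf2 (Helios), Ikzf3 (Aiolos), Ikzf4 (Eos) and Ikzf5 (Pegasus), among 55536 annotated genes in the deposited tables. Members were found by symbol, and no measured level entered the rule; all 5 were present, with 34 annotated transcripts. The cells came from 1 adult male mouse of the strain B6.SJL-Ptprca Pepcb/BoyJ, aged 5 months, and were labelled as naive CD4-positive T cells of the alpha-beta lineage derived from the thymus. PolyA-selected RNA of this animal was sequenced as 3 technical libraries, which form 1 group with no treatment, genotype or cell type to compare. All SDs below are therefore spreads between libraries of the same animal (n = 3 libraries), and none measures differences between animals.

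Ikaros proteins bind DNA through zinc fingers near their amino terminus and pair with one another through 2 fingers near the carboxyl terminus. A zinc finger is a short fold held by a zinc ion between cysteine and histidine residues. Alternative splicing removes exons that encode DNA-binding fingers, and a protein with too few of them can still pair with a full-length partner but binds DNA poorly, so it acts as a dominant negative. For Ikaros, the form with every DNA-binding finger is known as Ik-1 and the form that lacks the first as Ik-2. In T cells Ikaros restrains activation and silences genes through chromatin-modifying complexes, Aiolos is its close relative in lymphocytes, Helios and Eos are known from regulatory T cells, and Pegasus is the most divergent member.

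The fingers were located in the coding sequence of 1 reference transcript per gene by the spacing of their zinc-binding residues. Ikzf1, Ikzf2, Ikzf3 and Ikzf4 each had 6 fingers, of which 4 lie near the amino terminus and 2 near the carboxyl terminus. Ikzf5 had 5, of which 3 lie near the amino terminus, so the family held 29 in all. The reference proteins were 535 residues long for Ikzf1, 532 for Ikzf2, 507 for Ikzf3, 586 for Ikzf4 and 419 for Ikzf5. Sequences below are from GENCODE M21 transcripts on GRCm38 (mm10), written 5′ to 3′ on the strand of the gene.

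Exons 4 and 5 of the transcript Ikzf1-203 are shown because they are the internal coding exons by which the annotated Ikzf1 transcripts differ. Both are coding and have lengths divisible by 3, so leaving either out keeps the reading frame. Exon 4 lies at chr11:11740950-11741009 on the plus strand and holds 60 bases, or 20 codons, ahead of the first finger. Exon 5 lies at chr11:11748311-11748571 and holds 261 bases, or 87 codons, with the whole of finger 1. Capitals in exon 5 mark the bases of finger 1.
Ikzf1 exon 4: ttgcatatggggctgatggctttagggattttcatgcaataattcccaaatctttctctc
Ikzf1 exon 5: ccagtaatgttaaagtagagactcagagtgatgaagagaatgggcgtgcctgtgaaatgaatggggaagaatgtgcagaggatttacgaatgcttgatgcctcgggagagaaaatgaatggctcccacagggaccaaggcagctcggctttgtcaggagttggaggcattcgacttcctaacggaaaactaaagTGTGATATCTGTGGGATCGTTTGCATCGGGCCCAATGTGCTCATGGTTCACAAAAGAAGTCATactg

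Finger 1 is the finger whose exon was skipped in both Ikzf1 and Ikzf2, while finger 4 was skipped in Ikzf2 only. The sequence of finger 1 is shown for the members that have a counterpart. Capitals here and in the next set mark the codons of the 4 zinc-binding residues. The sequences lie at chr11:11748505-11748567 (plus strand) for Ikzf1, chr1:69577785-69577847 (minus) for Ikzf2, chr11:98490336-98490398 (minus) for Ikzf3 and chr10:128641057-128641119 (minus) for Ikzf4.
Ikzf1 finger 1: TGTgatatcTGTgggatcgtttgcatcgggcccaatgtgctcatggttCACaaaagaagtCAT
Ikzf2 finger 1: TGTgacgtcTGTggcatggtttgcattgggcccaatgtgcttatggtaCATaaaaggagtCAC
Ikzf3 finger 1: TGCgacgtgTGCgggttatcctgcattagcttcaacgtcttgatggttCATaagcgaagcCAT
Ikzf4 finger 1: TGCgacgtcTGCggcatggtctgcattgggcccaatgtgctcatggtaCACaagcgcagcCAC

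Against Ikzf1, finger 1 shared 19 of 21 residues in Ikzf2 and in Ikzf4 and 16 of 21 in Ikzf3. Finger 2 is shown for contrast, since its residues were identical to those of Ikzf1 in Ikzf2, Ikzf3 and Ikzf4 (21 of 21) while 51, 51 and 53 of its 63 bases matched. These sequences lie at chr11:11754024-11754086 (plus) for Ikzf1, chr1:69570581-69570643 (minus) for Ikzf2, chr11:98488940-98489002 (minus) for Ikzf3 and chr10:128640229-128640291 (minus) for Ikzf4. The first finger of Ikzf5, at chr7:131393759-131393821 (minus), is added as an example of the divergent member.
Ikzf1 finger 2: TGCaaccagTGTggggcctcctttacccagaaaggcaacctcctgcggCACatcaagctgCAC
Ikzf2 finger 2: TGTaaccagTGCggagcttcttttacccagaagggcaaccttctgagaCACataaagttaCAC
Ikzf3 finger 2: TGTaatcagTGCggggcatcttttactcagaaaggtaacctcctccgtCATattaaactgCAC
Ikzf4 finger 2: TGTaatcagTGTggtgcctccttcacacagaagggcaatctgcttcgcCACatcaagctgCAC
Ikzf5 finger 1: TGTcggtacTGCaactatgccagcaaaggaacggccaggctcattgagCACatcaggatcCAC

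Fingers 3 to 6 of Ikzf2, Ikzf3 and Ikzf4 shared between 80.95% and 100% of residues with the same finger of Ikzf1. Fingers 1 and 2 of Ikzf5 shared at most 9 of 21 residues with any Ikzf1 finger of the same length. Its closest match was finger 4, one of the carboxyl-terminal pair, which shared 14 of 21 residues with finger 5 of Ikzf1. In finger 4 of Ikzf1, Ikzf2, Ikzf3 and Ikzf4 the last zinc-binding residue was a cysteine in place of a histidine.

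The libraries held 14837442, 18207118 and 17505621 expected counts, that is, estimated reads assigned to genes. The labelled cell type was checked against marker genes. All 5 T cell markers and all 5 markers of naive or resting T cells were detected, with summed levels of 4736 to 5481 and 5967 to 6490 TPM, an abundance unit corrected for transcript length and library depth. Of the markers of other cells, the summed levels per library were 2.06 to 3.35 TPM for 4 myeloid markers, 17.0 to 17.4 TPM for 2 CD8 T cell markers and 10.6 to 15.6 TPM for 3 natural killer cell markers. The CD8 sum came almost wholly from Cd8b1 (17 ± 0.235 TPM), with Cd8a at 0.14 ± 0.0458, and the natural killer sum from Klrd1 (12.1 ± 2.83), with Klrb1c at 0.19 ± 0.0625 and Ncr1 at 0 in libraries 2 and 3.

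Ikzf1 had the highest level of the family and Ikzf4 the lowest. The TPM of Ikzf1 were 150, 163.7 and 129 in libraries 1, 2 and 3, a mean of 147.6 ± 17.5. Each value lay above the upper bound of the authors' interval of posterior TPM for Ikzf1 (136.3, 151.5 and 119.7). The mean of the posterior TPM of Ikzf1 was 129. It ranked 1174 of 22028 protein-coding genes and 8 of 457 genes whose symbols begin with Zfp, Zbtb, Klf or Ikzf, which are mostly zinc finger genes. Ikzf1 made up 62.9% ± 4.32 of the summed TPM of the 5 genes. The protein-coding genes nearest to it over the 3 libraries, by distance between log2 values, were Nup153, a nuclear pore gene with a mean of 147.5 ± 14.7 TPM, and Actr2, a gene of the actin-branching complex with a mean of 147.5 ± 11.9 TPM.

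Ikzf3 had 36.2, 39.0 and 36.5 TPM, a mean of 37.2 ± 1.51, with each value again above the authors' upper bound (34.33, 37.75 and 35.13). Ikzf5 had 35.05, 26.46 and 37.19 TPM, a mean of 32.9 ± 5.68. The ranges of these 2 genes overlapped, and Ikzf3 was the higher one in 2 of 3 libraries, or in 1 of 3 by posterior TPM, so their order cannot be set. They ranked 4422 and 4794 among protein-coding genes.

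Ikzf2 had 11.3, 7.99 and 12.3 TPM, a mean of 10.6 ± 2.28, and Ikzf4 had 6.13, 6.09 and 4.84 TPM, a mean of 5.69 ± 0.734. Every Ikzf2 value was above every Ikzf4 value, although library 2 brought them close. They ranked 7454 and 8391 among protein-coding genes. Ikzf4, the lowest member, was far from the limit of detection, with 173 to 254 expected counts per library, where a count of 0 allows up to 3. Markers known from regulatory T cells, where Helios and Eos are also expressed, were detected in 5 of 5 cases: Foxp3 had 18.9 ± 1.81 TPM, Il2ra 7.28 ± 1.15, Nrp1 3.59 ± 0.191, Ctla4 54.1 ± 3.54 and Tnfrsf18 252 ± 23.9, and their summed level was 315.1 to 345.9 TPM per library. Their part in the Ikzf2 and Ikzf4 levels was not tested, and in such a bulk sample fewer cells of a type and less RNA per cell cannot be told apart.

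Of the 10 pairs of family genes, 9 had TPM ranges that did not overlap, and the exception was Ikzf3 and Ikzf5. Between neighbours in the order of levels, the log2 ratio of TPM, with 0.1 added to each value, was 1.98 ± 0.14 for Ikzf1 over Ikzf3, 0.19 ± 0.32 for Ikzf3 over Ikzf5, 1.64 ± 0.07 for Ikzf5 over Ikzf2 and 0.87 ± 0.47 for Ikzf2 over Ikzf4. Only the ratio of Ikzf3 to Ikzf5 was smaller than its own SD. With the counts of all libraries pooled and divided by length, Ikzf1 was 3.996 times as high as Ikzf3 (95% Clopper-Pearson interval 3.84 to 4.16) and Ikzf2 was 1.85 times as high as Ikzf4 (1.66 to 2.06). These intervals cover counting error only, since pooling leaves out the spread between libraries. For Ikzf2 over Ikzf4 the log2 ratios were 0.88, 0.39 and 1.33 in libraries 1, 2 and 3. The reads also carry no molecular identifiers. No permutation test was made between genes, because 3 values against 3 cannot reach an exact p under 0.05 and the libraries are not separate animals.

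The order within 2 of these pairs depended on how the level was estimated. Without correction for length, expected counts put Ikzf5 above Ikzf3, with a log2 ratio of Ikzf3 over Ikzf5 of -0.19 ± 0.38, and the log2 ratio of Ikzf2 over Ikzf4 was then 0.30 ± 0.49, with Ikzf4 the higher one in library 2. The whole-number counts on the older GENCODE M4 annotation put Ikzf4 above Ikzf2, with a log2 ratio of Ikzf2 over Ikzf4 of -1.74 ± 0.20, and they have no length correction either. They also put Ikzf3 above Ikzf5 in 3 of 3 libraries, with a log2 ratio of 1.28 ± 0.37. In that table Ikzf2 had 32, 36 and 34 counts and Ikzf4 had 97, 143 and 110. For Ikzf2 these counts were 13.1% of its expected counts and for Ikzf5 13.7%, against 27.2% for Ikzf1, 38.1% for Ikzf3 and 55.5% for Ikzf4. The median over 8577 genes was 50.7% (interquartile range 34.1% to 66.4%).

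**Figure D1:**
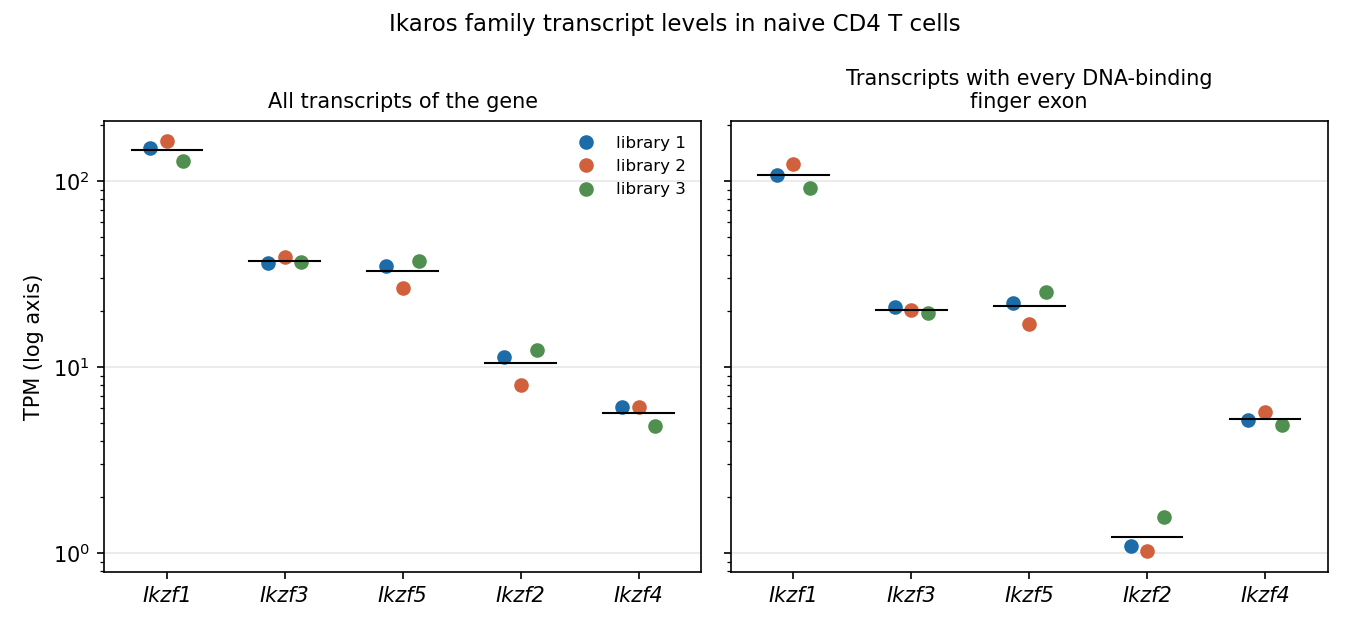
TPM of the 5 family genes in each library on a log axis (points, libraries 1 to 3; bars, means), for all transcripts of a gene on the left and for the transcripts that hold every DNA-binding finger exon on the right. Ikzf2 lies above Ikzf4 on the left, with means of 10.6 and 5.69 TPM, and below it on the right, with 1.22 and 5.26 TPM.

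The 3 libraries differed from one another in the share of reads given to family genes. A chi-square test of equal proportions, scaled by normalised library size, called 4 of 5 members at an adjusted p under 0.05, where 40.0% of all 13090 genes tested were called. In genes with more counts the test can detect smaller differences. Of the genes averaging at least 50 counts, 4868 of 10175 were called. Expected counts of Ikzf1 were 4729, 7097 and 4805, and after scaling the highest library stood 1.46 times above the lowest, with a coefficient of variation of 19.3%. Library 2 was the high one for Ikzf1 and Ikzf3 and the low one for Ikzf5 and Ikzf2. The coefficients of variation were 18.2% for Ikzf5, 21% for Ikzf2, 7.20% for Ikzf3 and 12.3% for Ikzf4, the member that was not called. Without library 2, 1903 of 12917 genes (14.7%) were called, against 5238 with it, and Ikzf2, Ikzf3 and Ikzf5 were no longer called, with Benjamini-Hochberg adjusted p-values of 0.55, 0.456 and 0.0667 over all genes tested. The call for Ikzf3 was also lost without library 3 and with library totals in place of normalised sizes (adjusted p = 0.206 and 0.0817). On the older-annotation counts, Ikzf2 and Ikzf3 were not called either (adjusted p = 0.977 and 0.541).

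Ikzf1 transcripts differed in 2 cassette exons, exon 4 and exon 5, whose sequences are given above. Isoform percent, the share of a gene's TPM that the deposited tables assign to a transcript, was used to weigh them. Ikzf1-203, which holds both exons and every finger, had 39.0%, 41.9% and 42.0%, a mean of 41.0% ± 1.68. Ikzf1-204, which holds exon 5 but lacks exon 4, had 32.4%, 33.4% and 29.5%, a mean of 31.8% ± 2.02. Ikzf1-203 was the higher of the pair in 3 of 3 libraries, with a log2 ratio of TPM of 0.37 ± 0.12. In the annotation the support level, which runs from 1 (best) to 5, is 5 for Ikzf1-203 and 1 for Ikzf1-204. These forms also differ in the length of their first exon (544 and 256 bases) and last exon (3232 and 4046 bases), so the split between them need not rest on exon 4. A longer Ikaros form with such an insert ahead of finger 1 is known as Ik-H.

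Exon 5, and with it finger 1, was included in 71.5%, 75.4% and 71.5% of Ikzf1 TPM, a mean of 72.8% ± 2.23. It was skipped in 25.8%, 22.0% and 25.01%, a mean of 24.3% ± 2.04, and the rest belonged to a transcript that does not reach it. Every library thus assigned more Ikzf1 TPM to transcripts with finger 1 than to transcripts that skip it. These transcripts also differ outside exon 5, so this split need not rest on exon 5. The last exon held 3232 bases in Ikzf1-203 and 4046 in Ikzf1-204, against 918 in Ikzf1-201 and 206 in Ikzf1-202. Reads from bases found only in the longer last exons can be assigned only to transcripts with finger 1. A message with such a last exon but without exon 5 would thus count in part as keeping finger 1. Exon 4 was included in 41.0% ± 1.68 and skipped in 56.1% ± 1.94. Fingers 2, 3 and 4 were skipped by no annotated Ikzf1 transcript. They were kept in 91.3% ± 2.17 of TPM, and the remaining 8.71% ± 2.17 lay in 2 incomplete transcripts that end before them or within finger 2.

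The transcripts that skip exon 5 of Ikzf1 number 3. Ikzf1-202, of 911 bases, keeps fingers 2 to 4 and ends before the carboxyl-terminal pair, and its isoform percent was 19.5%, 9.88% and 17.8%. Ikzf1-201, of 1542 bases, keeps fingers 2 to 6 as the Ik-2 form does, and it was listed at 0 in libraries 1 and 3 and at 8.34% in library 2. The sum of these transcripts was 19.5%, 18.2% and 17.8%, a spread of 0.913 percentage points (SD), while the split between them differed in library 2. In the authors' deposited table the interval of the posterior TPM of Ikzf1-201 was 6.27 to 18.4 in library 2, and its upper bounds in libraries 1 and 3 were 3.88 and 2.78. Ikzf1-205, an incomplete model of 446 bases, held 5.77% ± 1.81.

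Because the transcripts that skip finger 1 are short, their share of reads was far smaller than their share of TPM. Over expected counts, transcripts with every DNA-binding finger held 94.5% ± 0.379 of Ikzf1 reads and those that skip finger 1 held 5.34%. Over the transcripts with a complete coding sequence alone, 79.7% ± 1.05 of TPM had every DNA-binding finger. The share of Ikzf1 with every DNA-binding finger thus ran from 72.8% of TPM over all transcripts to 94.5% of expected counts. Ikzf1 exons shared no base with exons of the genes annotated on the opposite strand of the same locus, Gm11999 and Gm12000, which had 1.33 ± 0.377 and 7.92 ± 1.31 TPM.

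**Figure D2:**
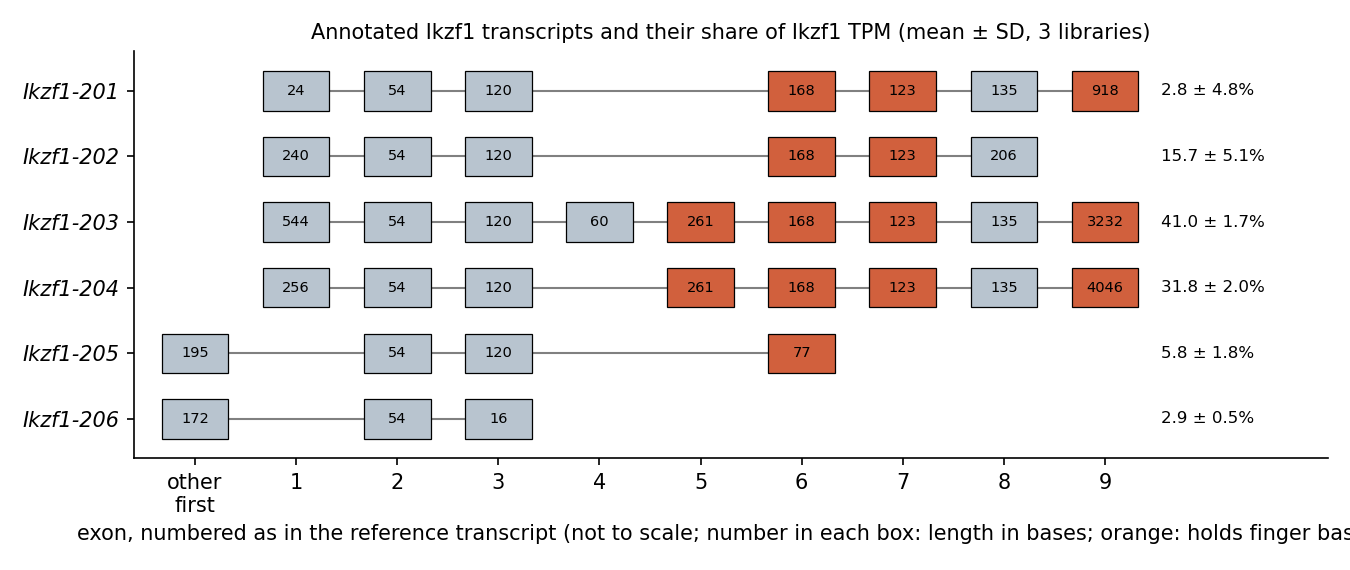
The 6 annotated Ikzf1 transcripts with their exons as boxes, numbered as in Ikzf1-203 and drawn in order but not to scale. The number in a box is the exon's length in bases, orange boxes hold bases of a finger, and the share at the right is the mean isoform percent with its SD over 3 libraries. The 261-base exon 5 is present in Ikzf1-203 and Ikzf1-204, and absent from the transcripts that continue past it without finger 1, Ikzf1-201, Ikzf1-202 and Ikzf1-205.

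Most of the Ikzf2 signal lay outside the transcripts that encode Helios. The retained-intron transcript Ikzf2-205 had 74.5%, 70.0% and 73.4% of Ikzf2 TPM, a mean of 72.6% ± 2.33, and a second one, Ikzf2-203, had 8.33% ± 2.10. Both lie at the 5′ end of the gene (chr1:69681559-69687140 for Ikzf2-205), reach none of the finger exons and together held 81.0% ± 3.33 of TPM and 61.4% of expected counts. Transcripts with every DNA-binding finger held 9.62%, 12.8% and 12.6%, a mean of 11.7% ± 1.80, and most of that was Ikzf2-201 with 8.41% ± 1.25. In TPM these full-finger transcripts amounted to 1.09, 1.02 and 1.56.

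The skipped forms of Ikzf2 rested on few reads. Ikzf2-204, which skips fingers 1 and 4, had 9.01% and 9.71% in libraries 1 and 2 and was listed at 0 in library 3. It rested on 22.9 expected counts in all, and its posterior shares were 3.95%, 4.87% and 1.16%. Ikzf2-202, which skips finger 1 alone, was listed at 0 in libraries 1 and 2 and had 3.27% in library 3. In the authors' deposited table the intervals of the posterior TPM overlapped between all libraries for both transcripts, with upper bounds of 1.006, 0.946 and 0.392 for Ikzf2-204 and 0.502, 0.343 and 0.697 for Ikzf2-202, so these data do not show a difference between libraries. Ikzf2-208 and Ikzf2-209, of which the latter skips fingers 1 to 3, were listed at 0 in every library. Over protein-coding transcripts alone, 62.7% ± 14.8 of TPM had every DNA-binding finger, and over expected counts of all transcripts the share was 34.4% ± 0.883.

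Ikzf3 had a single transcript with every finger, Ikzf3-201, which had 57.7%, 52.0% and 53.4% of Ikzf3 TPM, a mean of 54.4% ± 2.98. The processed transcript Ikzf3-202, for which no coding sequence is annotated, spans the exons of fingers 2 to 4 and had 29.5%, 36.2% and 34.99%, a mean of 33.6% ± 3.59. The retained-intron transcript Ikzf3-203 held 5.30% ± 1.00 and the processed transcript Ikzf3-204 6.76% ± 0.473. No annotated Ikzf3 transcript skips a finger, so every share below 100% came from transcripts that start after or end before one. Over expected counts Ikzf3-201 held 77.9% ± 1.34.

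Ikzf4 kept every DNA-binding finger exon in 84.4%, 94.2% and 100% of its TPM, a mean of 92.9% ± 7.87. The remainder rested on 4.26 expected counts over all libraries, so these data do not show a difference between libraries in this share. Over expected counts the share was 98.5%, 99.3% and 100%, a mean of 99.3% ± 0.732. The largest contributor by TPM, Ikzf4-208, is annotated as a target of nonsense-mediated decay, the pathway that degrades messages with an early stop. It had 59.3%, 43.8% and 57.1%, a mean of 53.4% ± 8.38. It holds the finger exons, yet none of the fingers lies in its own annotated reading frame. Counting only transcripts with the fingers in frame, which was chosen after the values were seen, the share fell to 25.2%, 50.4% and 42.9%, a mean of 39.5% ± 12.96. The main coding form Ikzf4-201 had 22.8%, 38.5% and 42.9%, and library 1 was the lowest in both measures. By posterior share, Ikzf4-208 and Ikzf4-201 were closer, with means of 35.9% and 28.0%. In all they had 303 and 302.3 expected counts, and Ikzf4-201 had more in libraries 2 and 3. The authors' intervals of posterior TPM overlapped between Ikzf4-208 and Ikzf4-201 in every library, so their order cannot be set. Ikzf4-203, which lacks one carboxyl-terminal finger, was listed at 10.3% in library 2 and at 0 in the others.

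Ikzf5 had 1 transcript with every finger, Ikzf5-201, which had 62.9%, 64.2% and 67.8% of Ikzf5 TPM, a mean of 64.9% ± 2.53. Ikzf5-202, which skips DNA-binding fingers 2 and 3 and keeps the rest, had 4.02% and 8.46% in libraries 1 and 3 and was listed at 0 in library 2. The authors' intervals of its posterior TPM overlapped between all libraries, with upper bounds of 3.59, 2.00 and 4.67 and lower bounds of at most 0.730. These data thus do not show a difference between libraries for Ikzf5-202. The rest of Ikzf5 TPM lay mainly in short or partial models. These were Ikzf5-206 with 11.3% ± 7.24, the retained-intron transcript Ikzf5-207 with 10.24% ± 4.601 and Ikzf5-203 with 7.09% ± 0.397. Ikzf5-206 and Ikzf5-203 rested on 49.8 and 46.2 expected counts in all, and their lower bounds of posterior TPM were at most 0.0044. Over expected counts, Ikzf5-201 held 86.6% ± 3.63. The opposite strand carries Pstk, a kinase gene of selenocysteine synthesis. Its exons share 4652 of the 5721 exonic bases of Ikzf5 and cover all 324 bases of the Ikzf5 fingers. Pstk had 26.6, 24.0 and 27.7 TPM. Whether counting used strand is not given in the sources used here, so the reads of Ikzf5 and Pstk may not have been told apart, and Ikzf5 values are uncertain for that reason.

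**Figure D3:**
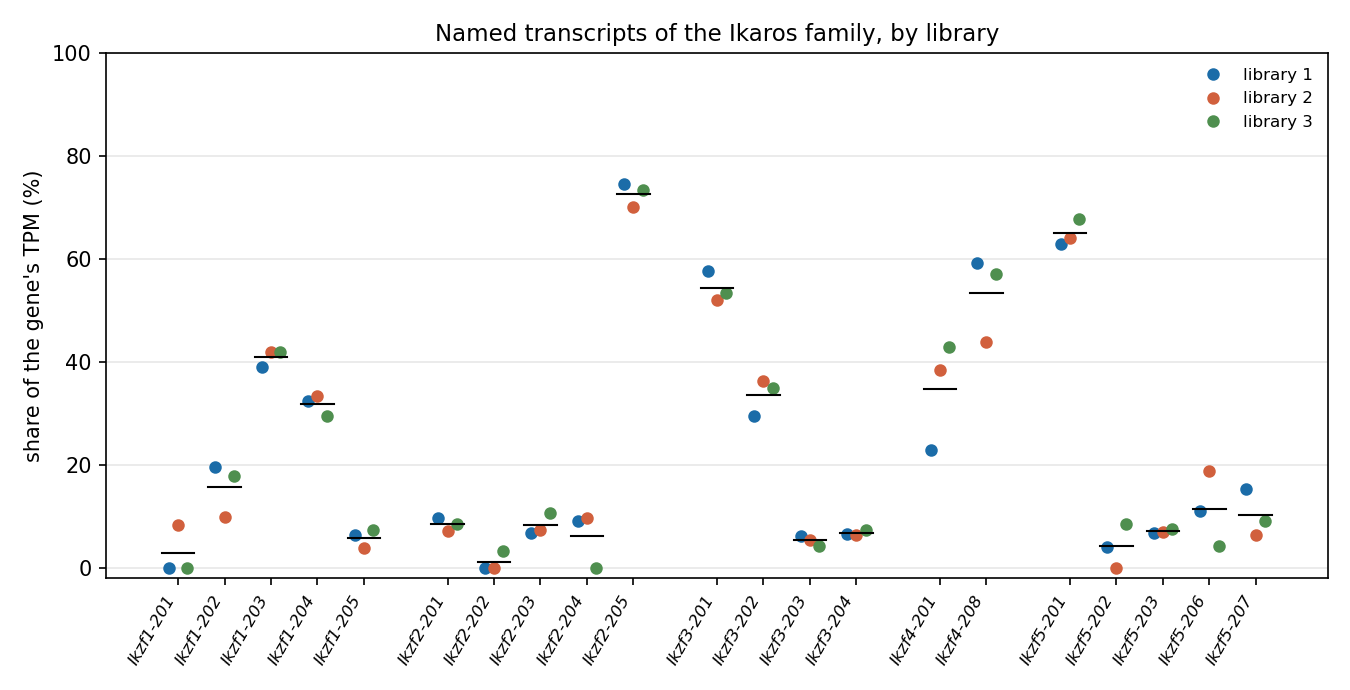
Isoform percent of the transcripts that had a mean of at least 5% or that skip a DNA-binding finger, by library (points) with the mean (bar); transcripts at 0 in every library are left out. The retained-intron transcript Ikzf2-205 has the highest share of any transcript shown, at 72.6%, and Ikzf1-201 and Ikzf2-204 are at 0 in some libraries and above 8% in others.

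Across the family, 8 of 34 annotated transcripts skip at least 1 DNA-binding finger, and 10 keep every one. The skipping transcripts are 3 of Ikzf1, 4 of Ikzf2 and 1 of Ikzf5, and 2 of them, both of Ikzf2, were listed at 0 in every library. By share of the gene's TPM, skipping was highest for Ikzf1 at 24.3% ± 2.04, followed by Ikzf2 at 7.33% ± 3.53 and Ikzf5 at 4.16% ± 4.23, and no annotated transcript of Ikzf3 or Ikzf4 skips one. The Ikzf1 values (22.0% to 25.8%) did not overlap those of Ikzf2 (3.27% to 9.71%) or Ikzf5 (0 to 8.46%), while those of Ikzf2 and Ikzf5 overlapped. The separation of Ikzf1 from Ikzf2, in shares of TPM over all transcripts, was lost in both other measures examined. That of Ikzf1 from Ikzf5 was lost over expected counts alone. Over expected counts, skipping made up 4.98% to 5.78% for Ikzf1, 2.53% to 5.37% for Ikzf2 and 0 to 5.35% for Ikzf5, and the ranges overlapped. Over the transcripts that span all DNA-binding fingers, which leaves out the retained-intron transcripts of Ikzf2, the order turned: 37.3% ± 14.8 of Ikzf2 TPM and 20.3% ± 1.05 of Ikzf1 TPM skipped a finger, with ranges of 20.6% to 48.4% and 19.5% to 21.4%. In that measure Ikzf5 stayed below both ranges, at 6.01%, 0 and 11.1% in libraries 1, 2 and 3. All Ikzf5 shares carry the uncertainty from Pstk given above. The shares of every gene depend on the transcripts that the annotation lists, since a splice form outside it would be assigned to the listed ones.

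**Figure D4:**
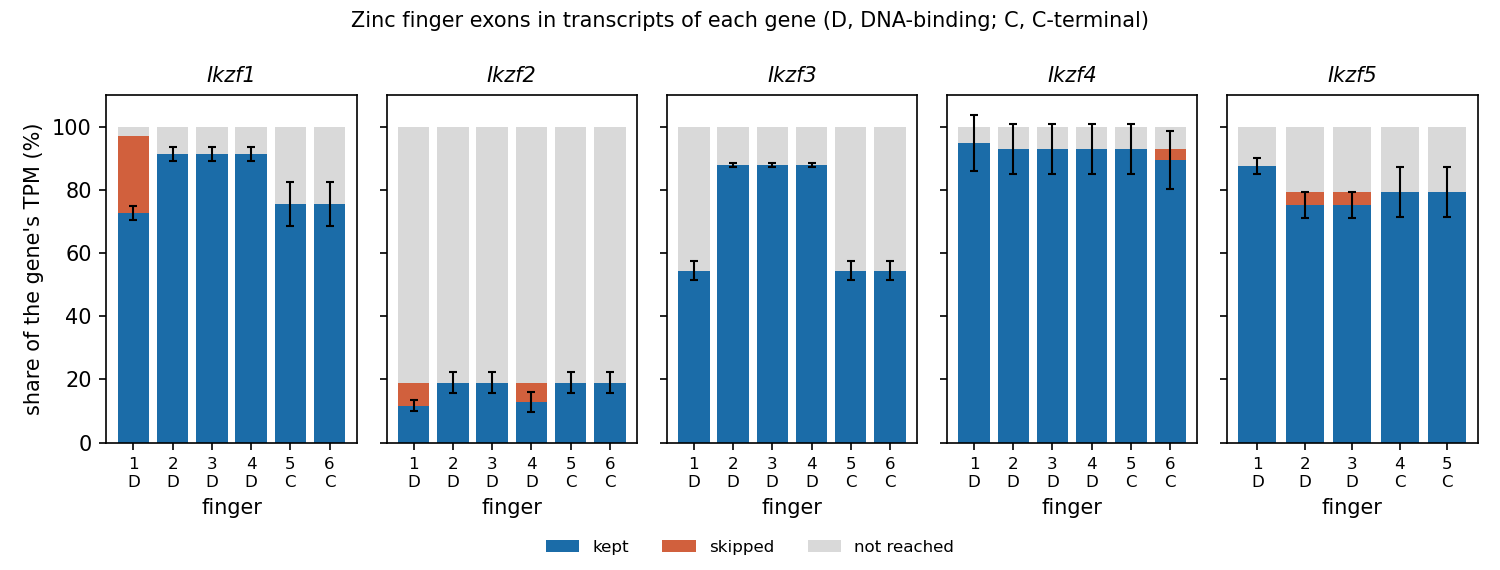
Share of each gene's TPM in transcripts that keep, skip or do not reach each finger (stacked bars, means of 3 libraries; error bars, SD of the kept share), with D for DNA-binding and C for carboxyl-terminal fingers. Finger 1 of Ikzf1 is skipped in 24.3% of all Ikzf1 TPM, and for Ikzf2 81.0% lies in transcripts that reach no finger, so its skipped share of 7.33% is set against a kept share of 11.7%.

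When only transcripts with every DNA-binding finger exon were counted, the order of the means changed within both pairs whose gene levels were closest. Ikzf1 remained the highest, with 107, 123 and 92.3 TPM and a mean of 108 ± 15.6. Ikzf5 followed with 22.1, 17.0 and 25.2 TPM and Ikzf3 with 20.9, 20.3 and 19.5, and their ranges again overlapped. Ikzf4 had 5.18, 5.74 and 4.85 TPM and Ikzf2 1.09, 1.02 and 1.56, so that Ikzf4 was above Ikzf2 in 3 of 3 libraries with no overlap. With the Ikzf4 fingers required to be in frame, Ikzf4 had 1.55, 3.07 and 2.08 TPM, still the higher of the pair within each library, but its lowest value then fell just inside the Ikzf2 range.

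Genes of known partners of Ikaros proteins were examined as lists. Of 33 genes in 5 lists, 29 were detected, meaning at least 1 TPM in every library, against 44.6% of all protein-coding genes (9823 of 22028). All 13 genes of the NuRD chromatin-remodelling and deacetylase complex, through which Ikaros regulates genes, were detected. Their median was 105 TPM, beside 31.4 TPM over all detected protein-coding genes. The NuRD genes ran from Mbd2, a methyl-DNA reader with 355, 287 and 368 TPM (336 ± 43.4), to Gatad2b, a scaffold subunit with 11.6 ± 0.498. The ATPases of the complex, Chd3 and Chd4, had 88.1 ± 4.41 and 39.0 ± 6.54 TPM, and the deacetylases Hdac1 and Hdac2 had 153 ± 12.1 and 94.1 ± 9.49.

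Among the other corepressors, 3 of 4 were detected. Ctbp1, a binding partner of Ikaros, had 308 ± 29.1 TPM, whereas its paralog Ctbp2 had 0.96, 2.26 and 1.51 TPM and missed the threshold in library 1. All 5 genes of the cereblon ubiquitin ligase, which degrades Ikaros and Aiolos in human cells treated with thalidomide analogs, were detected, from Crbn, the substrate receptor, with 349 ± 49.5 TPM to the cullin gene Cul4a with 23.4 ± 2.34. All 6 genes of casein kinase 2 and protein phosphatase 1, which add and remove phosphates on Ikaros, were detected, from Ppp1ca with 692 ± 103 TPM to Csnk2a2 with 27.4 ± 1.98.

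Of 5 genes of the Notch pathway, which shares target sites with Ikaros in thymocytes, only Dtx1 and Notch1 were detected. Dtx1 had 111, 95.2 and 98.6 TPM and Notch1 23.2, 33.5 and 16.8. Hes1, a classical Notch target, had 0.16, 0.4 and 0.07 TPM, Ptcra, the pre-T cell receptor alpha gene, at most 0.09, and Notch3 at most 0.01. Of the 30 list genes with at least 10 counts on average, 22 were called as differing between libraries by the chi-square test, beside 40.0% of all genes tested. That 40.0% was not matched to the list genes by level, and 4868 of 10175 genes averaging at least 50 counts were called.

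**Figure D5:**
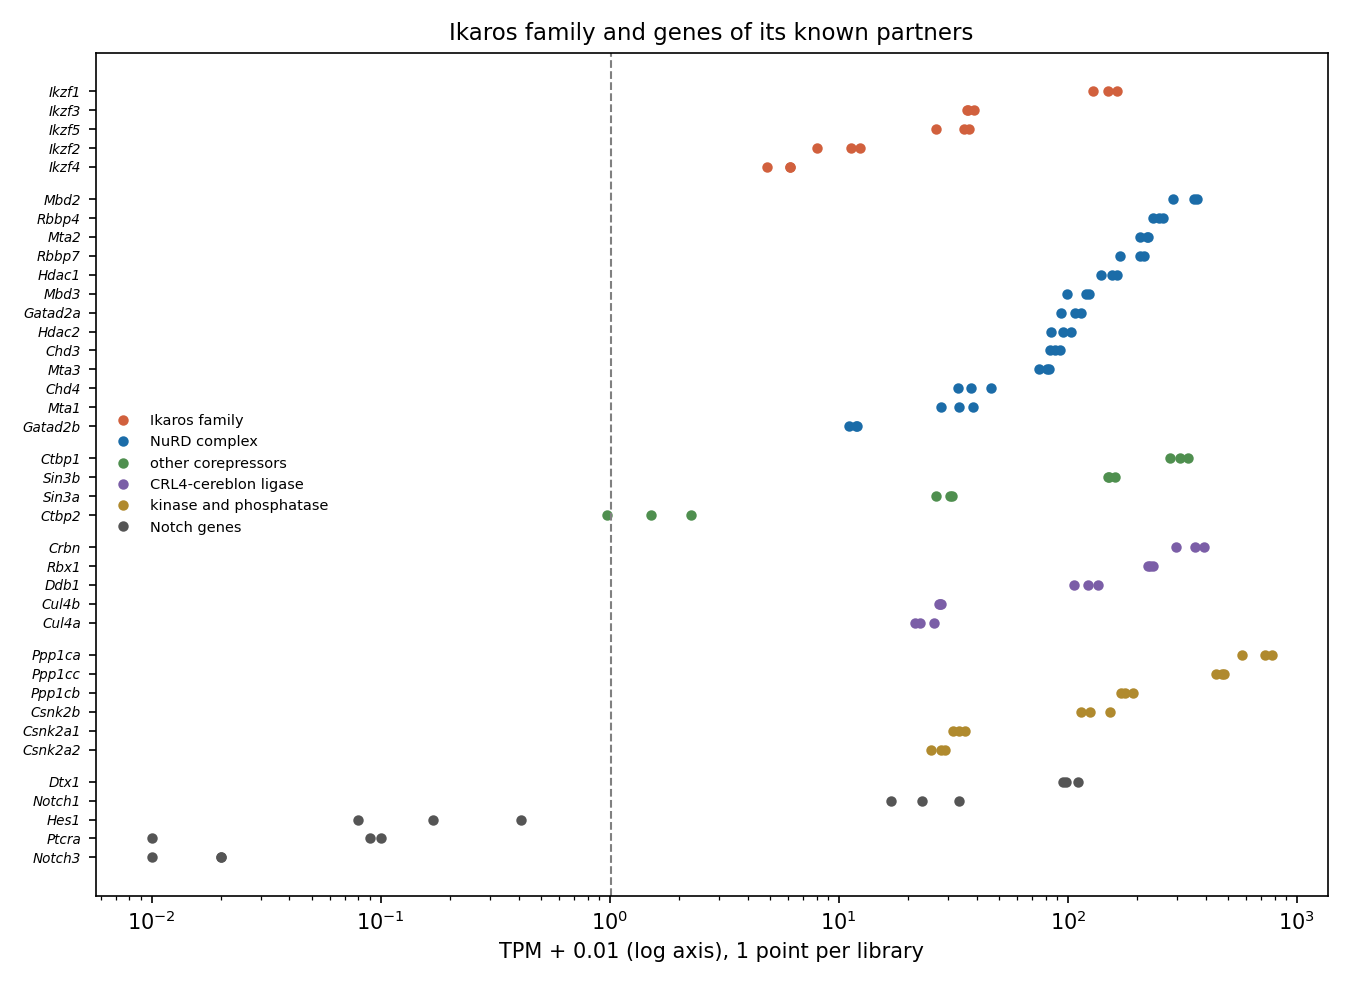
TPM of the 5 family genes and of the 33 partner list genes in each library, with 0.01 added for the log axis; the dashed line marks the detection threshold of 1 TPM. All NuRD, cereblon ligase, kinase and phosphatase genes lie to the right of the line, and Hes1, Ptcra and Notch3 lie to its left.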

How the data were processed

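Assembly mm10 and the annotations GENCODE M21 and, for an older count table, M4 come from text deposited with the files; aligner, counter and strand use: not given in the sources used here. Per the labels, RNA was sheared (size range 100 to 300). Per the file headers, the authors' gene and transcript tables hold expected counts, TPM (maximum-likelihood and posterior mean), a signal interval of TPM and isoform percent. The deposited M4 counts are whole numbers, 5160325, 5816158 and 5703629 per library. Entries that name no gene (0.247%, 0.200% and 0.325% of expected counts) stayed out of library sizes and tests.

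Levels are deposited TPM. Expected counts were rounded, scaled with TMM sizes (edgeR 4.0.16), and tested by chi-square with Benjamini-Hochberg adjustment (SciPy 1.17.1) in genes averaging 10 counts or more; the test was checked on simulated data. DESeq2 1.42.0 gave alternative size factors. Fingers were matched in translated GENCODE sequence as C, 2 to 4 residues, C, 12 residues, H, 3 to 5 residues, then H or C; overlapping matches were counted once, a choice made after seeing the matches. A finger was kept when its exonic bases were all present, skipped when the transcript spans but lacks them, and otherwise not reached. Named were all members, transcripts with a mean isoform percent of at least 5 or a skipped DNA-binding finger, and the highest and lowest gene of each partner list; other genes named were chosen after their values were seen. Members and lists were chosen with earlier results of these data known. No table of protein sequences was used. Markers of some other cell types are not reported here.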

Additional observations from a re-analysis of the deposited data

How the results depend on the processing

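Alternatives changed the posterior or count weighting, the transcripts in the total, the pseudocount, the filter, the normalisation and the libraries. The count of neighbouring pairs that held the order of mean TPM in every library was 3 of 4 in the main setting. It was 2 with expected counts without length correction, 4 without library 3 and 3 under every other alternative. On the older-annotation counts these 3 included Ikzf3 over Ikzf5 but not Ikzf2 over Ikzf4. The partner genes detected stayed at 29 or 30 of 33. The log2 ratio reversed to -0.19 for Ikzf3 over Ikzf5 (expected counts, no length correction) and to -1.74 for Ikzf2 over Ikzf4 (older-annotation counts). Genes called between libraries numbered 1895 of 10013 on the older counts and 1903 to 4875 with a library left out, against 5238. The share with all DNA-binding fingers moved with expected counts to 94.5% (Ikzf1), 34.4% (Ikzf2), 77.9% (Ikzf3) and 86.6% (Ikzf5). Protein-coding transcripts alone gave 62.7% (Ikzf2), 100% (Ikzf3) and 72.4% (Ikzf5); complete coding sequences alone gave 79.7% (Ikzf1), 62.7% (Ikzf2), 100% (Ikzf3) and 85.5% (Ikzf5); transcripts spanning all fingers gave 79.7%, 62.7%, 100% and 94.3% for the same genes. Posterior means gave 74.2% (Ikzf4) and 60.02% (Ikzf5), and fingers in frame 39.5% (Ikzf4). Fewer transcripts in the total account for the moves by construction where the total was restricted; otherwise the cause was not tested. No paired analysis was possible because the libraries form 1 group. Transcripts resting on few counts, such as Ikzf2-204, are limited by depth.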
